A study of Mus musculus with 19 samples.

Results

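Chemokine ligands were examined as a family of 10 genes, *Ccl2*, *Ccl3*, *Ccl4*, *Ccl6*, *Ccl12*, *Cxcl10*, *Cxcl12*, *Cxcl14*, *Cxcl16* and *Cx3cl1*, taken by symbol from 60567 entries of the expression table. Each of the 10 symbols stood alone on 1 entry, and all 10 were tested in every comparison. RNAseq had been performed on cells sorted from the hippocampus of 9 month-old male C57bl6 mice. GFP+ astrocytes came from wild type mice with a GFP vector (WT-GFP, n = 7), from APP/PS1dE9 mice with the same GFP vector (APP-GFP, n = 4) and from APP/PS1dE9 mice with GFP plus SOCS3 vectors (APP-SOCS3, n = 5). GFP- cells sorted from WT-GFP mice (n = 3) were the remaining group. APP/PS1dE9 mice carry a mutated *App* transgene (APPswe) and develop amyloid plaques. SOCS3 inhibits JAK2-STAT3 signalling, and the comparisons ask which genes differ between astrocytes and other cells, with the APP genotype and with SOCS3. All groups had received adeno-associated vectors in the hippocampus, GFP alone or GFP with SOCS3, months earlier under the astrocyte promoter gfaABC1D, so no group was without a vector and the GFP- fraction also held uninfected astrocytes. The left and right hippocampus of a mouse were sorted separately, and whether samples shared a mouse is not stated, so p-values measure the spread between samples.

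Chemokines are small secreted or membrane-bound proteins that bind G protein-coupled receptors and attract or position immune cells. CC and CXC ligands are named for the spacing of their first cysteines, and CX3CL1 is the only CX3C ligand. In brain, microglia, border macrophages, endothelial cells, neurons and astrocytes each make some of these ligands, and several are induced by interferon or NF-kB signalling.

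The values are read counts divided by a size factor per sample, called levels below, where 1 read was worth 0.756 to 1.18 units. Reads on genes ranged from 19331876 to 32621917 over the 19 samples. Genes detected ranged from 15575 to 26757 in GFP+ samples and from 30807 to 31897 in GFP- samples. Of the 16 GFP+ libraries 4 had fewer than 20000 genes detected, 3 of them WT-GFP and 1 APP-GFP. *Socs3* was 14488, 37750.1, 13296, 15732 and 16050.4 in APP-SOCS3 samples, against 438 to 1639 in APP-GFP samples, as the labels state. *App* was 0.86 ± 0.35 on the log2 scale in APP-GFP against WT-GFP samples (SE) and was called higher. In APP-SOCS3 samples *App* was 3153, 6011, 2633, 4899 and 2715, which overlapped with the 1735 to 5624 of WT-GFP samples and was called lower than in APP-GFP, so its level does not check the APP genotype of the APP-SOCS3 libraries. APP-GFP replicate 1, at 3663, also lay within the WT-GFP range. All 15 astrocyte markers were higher in GFP+ WT-GFP astrocytes than in GFP- cells. Sorting used GFP alone, and all 18 microglia markers were also detected in GFP+ samples. As a percentage of the GFP- mean, their summed level was 4.55 to 8.03% with SOCS3, 8.13 to 40.3% with APP-GFP, and 6.04 to 22.2% for WT-GFP. Oligodendrocyte markers summed to 119 to 558% of the GFP- mean over the GFP+ samples. In such bulk samples, fewer cells of a type and less RNA per cell cannot be told apart.

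All members map to the mm10 genome, 6 of them on chromosome 11. *Ccl2* (chr11:82035575-82037452) and *Ccl12* (chr11:82101843-82103403) lie near each other on the plus strand. *Ccl6* (chr11:83587886-83593087, minus strand), *Ccl3* (chr11:83647844-83649378, minus strand) and *Ccl4* (chr11:83662584-83664682, plus strand) form another cluster, and *Cxcl16* (chr11:70454234-70459988, minus strand) stands apart. *Cxcl10* lies at chr5:92346641-92348890 (minus strand), *Cxcl12* at chr6:117168535-117181368 (plus strand), *Cx3cl1* at chr8:94772180-94782427 (plus strand) and *Cxcl14* at chr13:56288647-56296551 (minus strand). Levels count reads on the constitutive exonic regions of these genes.

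RefSeq promoter windows of build GRCm38.p6 were matched for 7 of the 10 members. The 250 bases before the start site are shown for 4 members that behaved differently in the comparisons: *Ccl6* and *Ccl12*, which fell with SOCS3, and *Cxcl10* and *Cxcl14*, which were not called there. Capitals mark matches to motifs searched on both strands, and sequences run 5′ to 3′ on the strand of the gene.
Ccl6, chr11:83593088-83593337, minus strand: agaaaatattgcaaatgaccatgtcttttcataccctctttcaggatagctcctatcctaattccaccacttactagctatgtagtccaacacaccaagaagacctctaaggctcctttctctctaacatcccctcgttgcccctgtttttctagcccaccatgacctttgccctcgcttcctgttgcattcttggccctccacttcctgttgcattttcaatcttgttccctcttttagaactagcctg
Ccl12, chr11:82101595-82101844, plus strand: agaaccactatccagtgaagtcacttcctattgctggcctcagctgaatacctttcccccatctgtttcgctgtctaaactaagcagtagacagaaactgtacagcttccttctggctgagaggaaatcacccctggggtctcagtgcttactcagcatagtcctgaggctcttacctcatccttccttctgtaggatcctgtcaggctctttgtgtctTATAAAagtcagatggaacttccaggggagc
Cxcl10, chr5:92348890-92349139, minus strand: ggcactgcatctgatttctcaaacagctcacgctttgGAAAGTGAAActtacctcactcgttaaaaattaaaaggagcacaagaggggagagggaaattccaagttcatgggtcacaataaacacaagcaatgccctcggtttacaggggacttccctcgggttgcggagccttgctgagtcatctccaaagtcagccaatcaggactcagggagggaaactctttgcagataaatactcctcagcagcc
Cxcl14, chr13:56296552-56296801, minus strand: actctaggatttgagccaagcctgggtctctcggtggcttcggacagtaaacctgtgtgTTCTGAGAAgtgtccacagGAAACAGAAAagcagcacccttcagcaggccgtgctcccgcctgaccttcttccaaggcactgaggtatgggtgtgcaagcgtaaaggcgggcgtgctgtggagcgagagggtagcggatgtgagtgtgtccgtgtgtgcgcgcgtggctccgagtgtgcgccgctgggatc
The motifs were an interferon-stimulated response element (ISRE, a pair of TTTC with NN between), a STAT site (TTCNNNGAA), an NF-kB site (GGG and TTTCC with NN between) and a TATA box (TATAAA). The capitals in *Cxcl10* are an ISRE match 204 to 213 bases before the start. *Cxcl14* held a STAT match 183 to 191 bases and an ISRE match 163 to 172 bases before the start, and *Ccl12* a TATA match 26 to 31 bases before it. No match overlapped another. Over the 7 members, 2 held an ISRE match, 1 a STAT match, 2 a TATA match (*Ccl12* and *Cx3cl1*) and 0 a match to the NF-kB letters. Other forms of the NF-kB site were not searched, so 0 matches do not show that a window lacks one. Of 32851 promoters, 2.98% held the ISRE letters, 7.02% the STAT letters, 12.4% the TATA letters and 1.41% the NF-kB letters.

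*Cxcl14*, a chemokine expressed in many tissues without stimulation, had the highest level per length of the members in astrocytes. Divided by the length of its exons in GENCODE M21, its level per kb was 11271 ± 2784 in WT-GFP astrocytes (SD, n = 7). The corresponding level was 11008 ± 819.6 per kb with the APP genotype (n = 4) and 11705 ± 1094 per kb when SOCS3 was added (n = 5). *Ccl4* was next in all 3 astrocyte groups, at 937 ± 429, 2449.6 ± 2114 and 750.5 ± 187 per kb. In WT-GFP astrocytes the next places from *Cx3cl1* (215 ± 106 per kb) down to *Ccl12* (109.7 ± 95.0 per kb) lay within 1 SD of their neighbours. *Ccl6* moved from place 9 in WT-GFP, at 27.1 ± 20.8 per kb, to place 3 in APP-GFP, at 401 ± 330.4 per kb. There its SD also covered all lower places but the last, namely *Cx3cl1*, *Ccl3*, *Ccl12*, *Ccl2*, *Cxcl10* and *Cxcl12*. In GFP- cells *Ccl4* led at 11501 ± 3390.4 per kb, and *Cxcl14* stood at place 8 at 454 ± 267 per kb (SD, n = 3). The lengths cover all exons, while levels count constitutive regions only, so these places depend on the lengths used. Without lengths, the mean level of *Cxcl12* exceeded that of *Ccl4* in WT-GFP astrocytes (1101 against 618) and GFP- cells (18224 against 7591). In APP-GFP and APP-SOCS3 astrocytes *Ccl4* had the higher mean level of these genes.

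**Figure D1:**
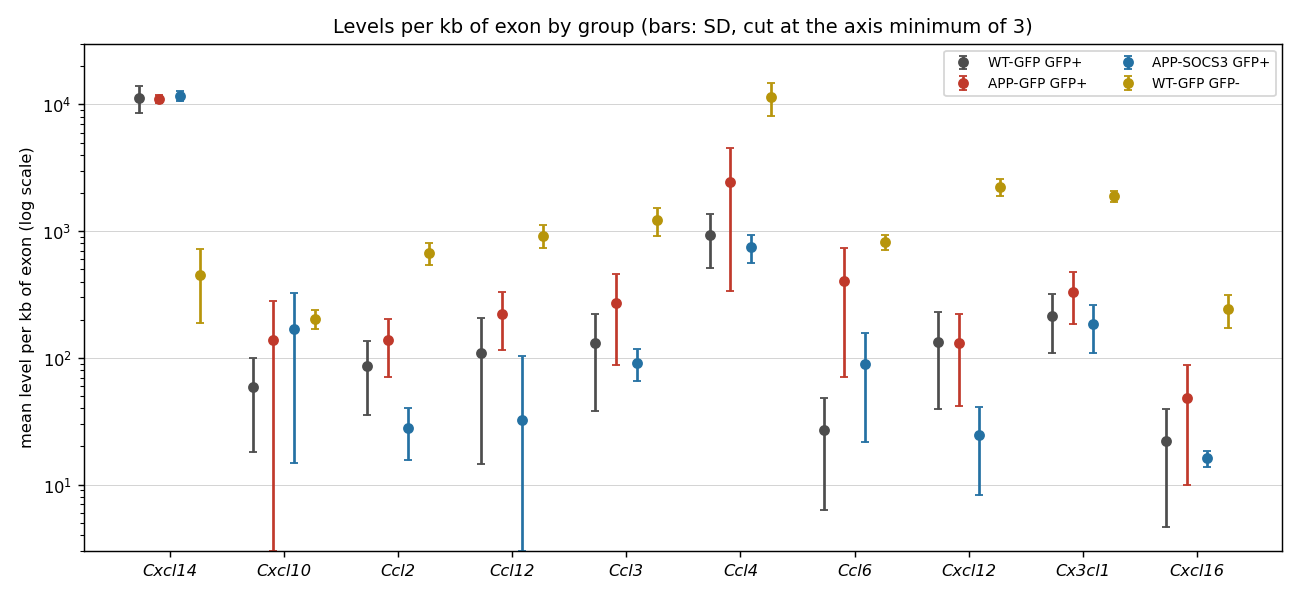
Mean level per kb of exon (log axis) for the 10 members in the 3 groups of GFP+ astrocytes and in GFP- cells, with bars for the SD. *Cxcl14* stands between 11008 and 11705 per kb in the 3 astrocyte groups and at 454 per kb in GFP- cells, while the other 9 members have their highest mean in GFP- cells.

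Between GFP+ astrocytes and GFP- cells of WT-GFP mice, *Cxcl14* was the member enriched in astrocytes. Its mean level was 20593 ± 5086 in astrocytes and 830.0 ± 487 in GFP- cells (SD, n = 7 and 3), a 28.1-fold difference on the log2(level + 1) scale, with a log2 fold change of 4.81 ± 0.37 (SE). The other 9 members had lower means in astrocytes, and 8 were called lower, from *Ccl6* at -5.74 ± 1.27 to *Cx3cl1* at -3.34 ± 0.49 on the log2 scale. *Cxcl10*, at -2.80, was not called. Calls required a limma p no higher than 0.05 and a change of 1.5-fold or more.

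All 10 members were free of overlap between these 2 groups, against 34.8% of the 26709 genes tested. The called share was 9 of 10, against 42.8% of all genes, of which 9.25% were higher and 33.5% lower. With Benjamini-Hochberg adjustment 7 of 10 had an adjusted limma p under 0.05, against 31.9% of all genes. Unadjusted calls covered 32.2% of genes in edgeR and 33.5% in DESeq2. The median log2 fold change was -3.76 over the members and -1.31 over all genes, and the median of all genes moved to -1.06 with TMM scaling and to -0.37 in edgeR. Fold changes are differences of mean log2(level + 1), and for members at 0 in some libraries they differed from the count model, with -2.80 for *Ccl12* and -2.70 for *Ccl2* in edgeR against -4.54 and -3.75 here. *Ccl2*, *Ccl12* and *Cxcl10* had the widest errors, and each was at 0 in 1 or 2 WT-GFP libraries with fewer than 20000 genes detected. The calls of *Ccl2* and *Ccl12* were lost when a GFP- library was left out, replicate 1 or 2 for *Ccl2* and any of the 3 for *Ccl12*, and *Cxcl10* was called at -1.80 without WT-GFP replicate 3.

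Between APP-GFP and WT-GFP astrocytes, *Ccl6* was the member that rose, with a mean of 720.0 ± 593 against 48.7 ± 37.4 (SD, n = 4 and 7). *Ccl4* had a mean 2.61 times, *Cxcl10* 2.34 times, *Cxcl16* 2.19 times and *Ccl3* 2.09 times that of WT-GFP, and none of these 4 was called. *Cxcl12* and *Cxcl14* had nearly equal means in both groups, at 0.98 and 0.977 times. The share called was 1 of 10, against 2.23% of 22969 genes (1.66% higher). The median log2 fold change was 1.08 over the members and 0.09 over all genes, and 9 of 10 estimates were above 0. After adjustment 0 of 10 members remained in limma and in edgeR and 1 (*Ccl6*) in DESeq2, while 1 member had an unadjusted limma p under 0.05 and 2 did in edgeR and in DESeq2. Adjusted limma calls covered 0.00435% of all genes, and unadjusted calls 2.87% in edgeR and 2.31% in DESeq2. Of 18 microglia markers 1 was called higher in APP-GFP, with all 18 estimates above 0, and of 8 perivascular macrophage markers tested 1 was called higher, also with all 8 above 0. With the microglial covariate *Ccl6* was again the 1 member called, against 252 of 22969 genes. Log2 fold changes of members not called went from 1.16 to 0.45 for *Ccl4*, from 1.01 to 0.39 for *Ccl3* and from 1.48 to 0.01 for *Cxcl16*. They went from 2.37 to 0.73 for *Ccl12*, from 0.73 to 0.06 for *Cx3cl1* and from 1.34 to 0.95 for *Ccl2*. *Cxcl10* went from 0.95 to 1.01, *Cxcl12* from 0.07 to -0.82 and *Cxcl14* from -0.00 to 0.0472.

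Between APP-SOCS3 and APP-GFP astrocytes, 7 of 10 members fell: *Ccl2*, *Ccl12*, *Ccl3*, *Ccl4*, *Ccl6*, *Cxcl12* and *Cx3cl1*. Means of APP-GFP were 4.96 times those of APP-SOCS3 for *Ccl2*, 5.37 times for *Cxcl12*, 4.47 times for *Ccl6*, 3.26 times for *Ccl4*, 2.98 times for *Ccl3* and 1.79 times for *Cx3cl1*. *Cxcl16* was not called, and *Cxcl10* and *Cxcl14* had estimates above 0 and were not called. The called share of 7 in 10 stood against 5.7% of 22844 genes, 3.37% lower and 2.33% higher. The median log2 fold change was -1.32 over the members and 0.08 over all genes. After adjustment 0 of 10 members remained in limma and in edgeR and 1 (*Ccl2*) in DESeq2, with 7 at an unadjusted limma p under 0.05, 6 in edgeR and 7 in DESeq2. These sets differ, as edgeR and DESeq2 included *Cxcl16* and not *Ccl12*, and edgeR did not include *Cx3cl1*. Adjusted limma calls covered 0.00438% of all genes, and unadjusted calls 5.79% in edgeR and 6.3% in DESeq2. This comparison shares its APP-GFP samples with the one above. *Ccl2*, *Ccl4*, *Ccl6* and *Ccl3* are also genes that the study singled out in these samples, so their direction is not independent evidence.

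Microglia markers moved with this comparison, as 17 of 18 were called lower in APP-SOCS3 than in APP-GFP astrocytes, and their summed level was 4.55 to 8.03% against 8.13 to 40.3% of the GFP- mean. All 18 microglia markers were detected in each group. Endothelial markers moved too, with 17 of 18 tested called lower and a summed level of 0.845 to 3.65% against 3.41 to 19.6%. Mural cell markers, with 5 of 12 called lower, summed to 1.63 to 2.76% against 2.86 to 14.3%, without overlap, and fibroblast markers, with 3 of 8 called lower, to 5.99 to 8.76% against 8.13 to 32.0%. Perivascular macrophage markers had 6 of 9 called lower, at 3.3 to 14.4% against 15 to 27.5%, while blood leukocyte markers were at or near 0, with 1 of 10 reaching the minimum level. Neuron markers had 3 of 12 tested called lower, oligodendrocyte precursor markers 3 of 8 and oligodendrocyte markers 1 of 9. Astrocyte markers had 1 of 15 called lower, and their median log2 fold change was 0.07. With the microglial list as a covariate 0 of 10 members were called, against 566 of 22844 genes. With the endothelial list 2 of 10 (*Ccl2* and *Ccl12*) were called, against 589 of 22844. With the microglial covariate *Ccl12* was -4.10 ± 2.22 (SE) and *Ccl2* -1.86 ± 0.96, neither of them called, *Cxcl12* was -0.51 ± 1.17, and *Ccl3*, *Ccl4* and *Ccl6* turned sign. The microglial sums of the 2 groups did not overlap, so in these samples the SOCS3 vector and the microglial marker level cannot be told apart. Endothelial sums overlapped only between APP-SOCS3 replicate 1 (3.65%) and APP-GFP replicate 4 (3.41%), so the endothelial fit compares samples with mostly unlike sums. Without the library with fewer than 20000 genes detected, APP-GFP replicate 2, 5 of 10 members were called, against 1279 of 23153 genes. Without APP-GFP replicate 3, the library with the highest microglial sum, 3 of 10 were called, against 1214 of 22720.

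**Figure D2:**
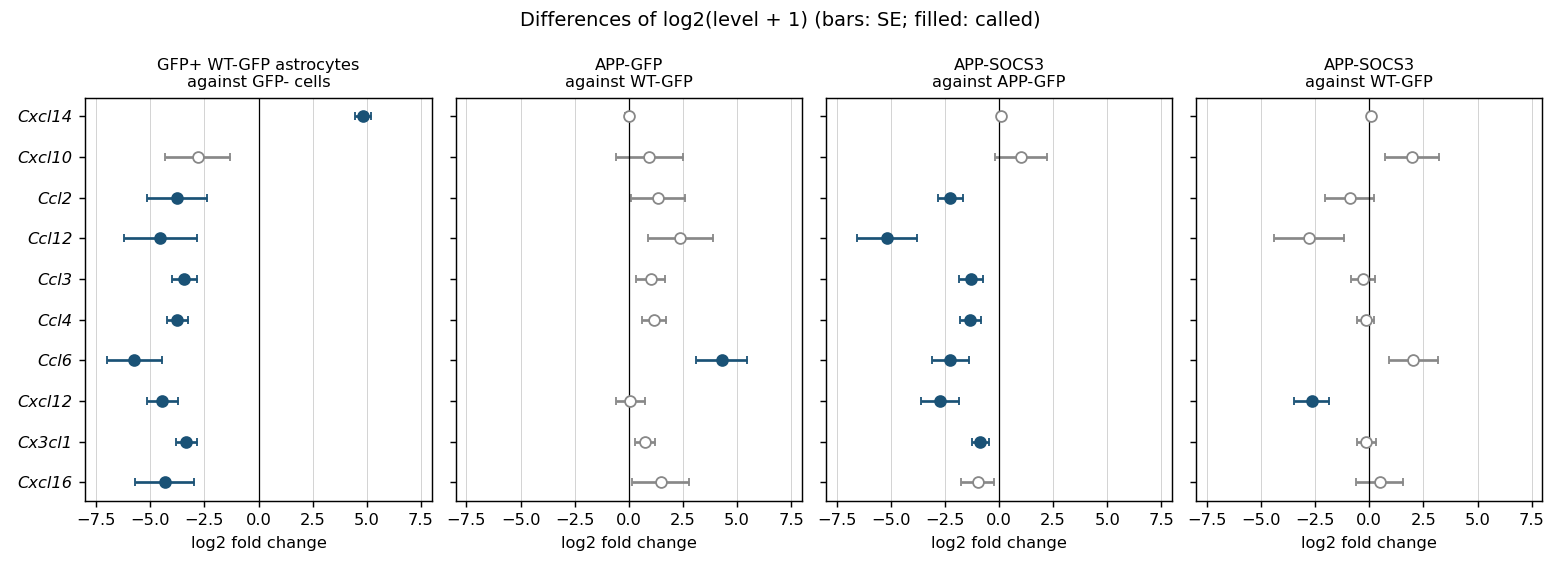
Log2 fold changes of the 10 members in 4 comparisons, with bars for the SE and filled points for called genes. *Cxcl14* lies at 4.81 in the first panel and near 0 in the others, *Ccl6* is the filled point of the second panel, and 7 filled points lie below 0 in the third.

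Between APP-SOCS3 and WT-GFP astrocytes, *Cxcl12* was the member that fell, with a mean of 201 ± 133 against 1101 ± 777 (SD, n = 5 and 7). The other 9 were not called, with log2 fold changes from -2.80 for *Ccl12* to 2.03 for *Ccl6*. The called share was 1 of 10, against 5.21% of 22958 genes (2.02% lower, 3.19% higher). The median log2 fold change was -0.16 over the members and 0.19 over all genes, 0.25 with TMM scaling. After adjustment 0 of 10 members remained in limma and in edgeR and 1 (*Cxcl12*) in DESeq2, with 1 at an unadjusted p under 0.05 in limma and in edgeR and 2 in DESeq2. Adjusted limma calls covered 0.0305% of all genes, and unadjusted calls 5.24% in edgeR and 5.07% in DESeq2. The call of *Cxcl12* moved with endothelial markers, of which 12 of 19 were called lower, and 9 of 18 microglia markers were called lower too. The *Cxcl12* difference was -0.24 with the endothelial and -1.57 with the microglial list as a covariate and was called with neither. With the endothelial list 0 of 10 members were called, against 1543 of 22958 genes. With the microglial list 1 (*Ccl6*) was called, against 1768. Only WT-GFP replicate 1 lay within the APP-SOCS3 range of either marker sum, so these fits compare samples with mostly unlike sums. Without the 3 WT-GFP libraries with fewer than 20000 genes detected, 4 of 10 members were called lower (*Ccl2*, *Ccl12*, *Cxcl12* and *Cxcl16*). In that setting 1649 of 22981 genes were called in either direction.

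**Figure D3:**
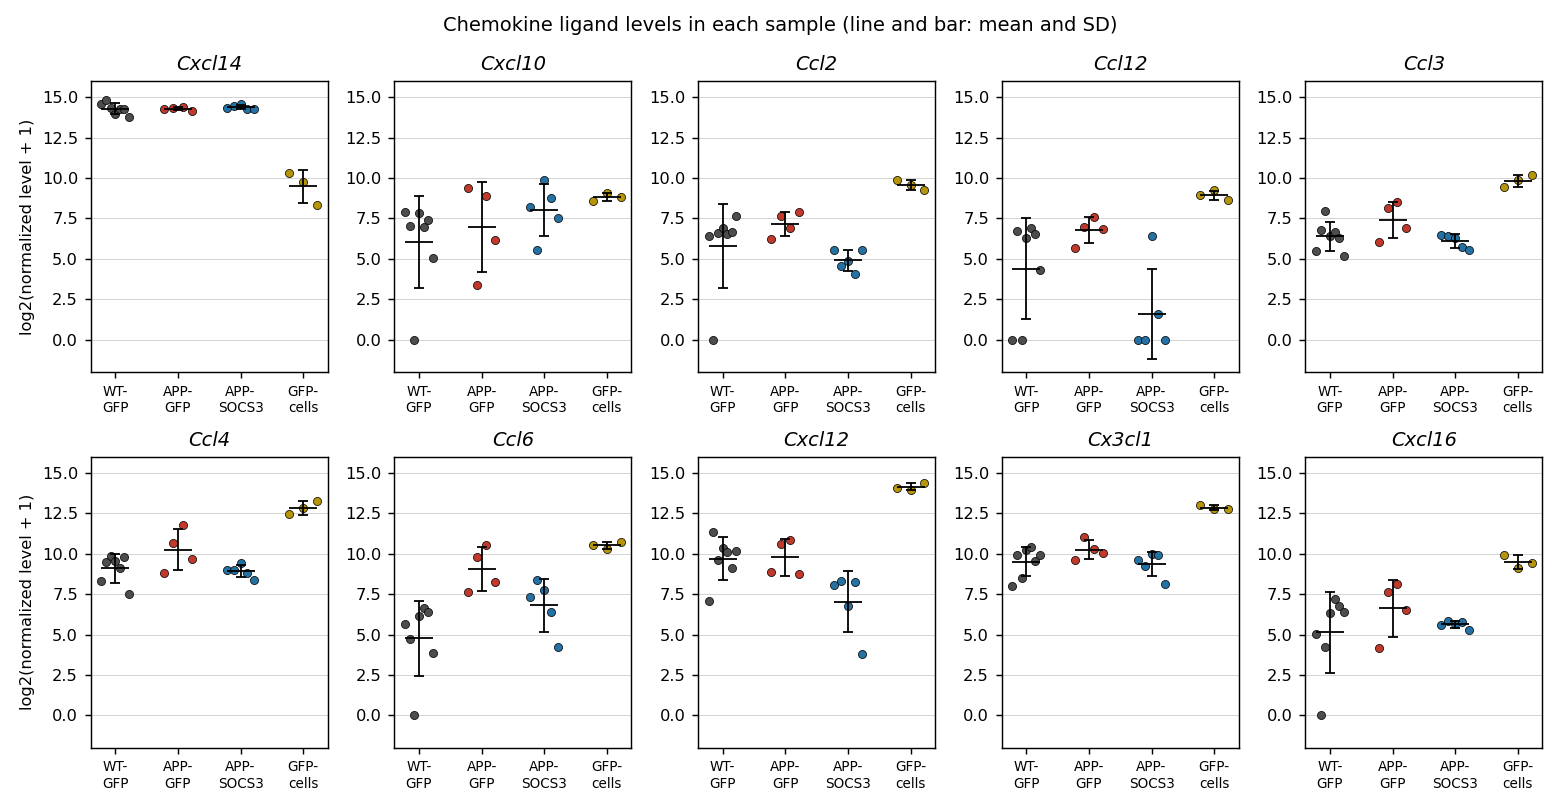
Log2(normalized level + 1) of the 10 members in each sample of the 3 groups of GFP+ astrocytes and of GFP- cells, with the mean as a line and the SD as a bar. *Cxcl14* points of astrocytes lie together above the GFP- points, *Ccl6* points of APP-GFP lie above all WT-GFP points, and 3 of 5 *Ccl12* points of APP-SOCS3 lie at 0.

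CXCL14 attracts monocytes and other cells and belongs to the ligands expressed at rest. *Cxcl14* levels were 14241 to 29262 with a median of 20095 in WT-GFP astrocytes. In APP-GFP astrocytes they were 19790.2, 20439, 21914 and 18304, and in APP-SOCS3 astrocytes 20548, 22487, 24339, 20047 and 19501. In GFP- cells they were 1293, 876 and 322. The astrocyte groups overlapped fully, and every astrocyte sample was above every GFP- sample. The log2 fold change was 4.81 ± 0.37 (SE, limma p = 5.36e-08, exact permutation p = 0.00833) against GFP- cells, where 0.00833 is the smallest p that 7 against 3 samples allow. It was -0.00 ± 0.18 for APP-GFP against WT-GFP and 0.09 ± 0.11 (SE, limma p = 0.446, exact permutation p = 0.341) for APP-SOCS3 against APP-GFP. Given as a percentage of the GFP- mean, *Cxcl14* was 65.5 to 516 times the microglial percentage of the same GFP+ sample.

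CXCL10 is induced by interferon and binds CXCR3. *Cxcl10* levels were 0 to 241 with a median of 132 in WT-GFP astrocytes. They were 678, 9.49, 478 and 72.4 in APP-GFP and 291, 46.5, 953, 441 and 185 in APP-SOCS3 astrocytes, and 385, 544 and 449.9 in GFP- cells. The 3 astrocyte groups overlapped, the spread within APP-GFP ran from 9.49 to 678, and 3 of the 16 astrocyte samples exceeded the GFP- mean. Differences were 0.95 ± 1.54 (SE, limma p = 0.551, exact permutation p = 0.636) for APP-GFP against WT-GFP, 1.02 ± 1.20 (SE, limma p = 0.411, exact permutation p = 0.524) for APP-SOCS3 against APP-GFP and 1.97 ± 1.24 (SE, limma p = 0.136, exact permutation p = 0.198) for APP-SOCS3 against WT-GFP. Beside the microglial sum, APP-GFP replicate 3 had a *Cxcl10* level of 478 with the highest sum, 40.3% of the GFP- mean. APP-SOCS3 replicate 3 had 953 with a microglial sum of 7.85% of the GFP- mean, and APP-GFP replicate 2 had 9.49 with a sum of 35.8%.

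CCL2 and CCL12 are ligands of CCR2 that recruit monocytes. *Ccl2* was 0 to 196 with a median of 96.5 in WT-GFP astrocytes. It was 72.4, 197, 118 and 239.7 in APP-GFP, 46.4, 22.3, 28.0, 15.7 and 45.7 in APP-SOCS3 astrocytes and 922, 768 and 613 in GFP- cells. Every APP-SOCS3 sample was below every APP-GFP sample, an absence of overlap seen for 2 of 10 members and 2.01% of all genes tested, and WT-GFP overlapped with both. The log2 fold change was -2.24 ± 0.60 (SE, limma p = 0.00312, exact permutation p = 0.00794) with an adjusted p of 0.576 in limma and 0.0133 in DESeq2, and 0.00794 is the smallest p that 5 against 4 samples allow. It was -1.86 and not called with the microglial covariate, and -2.22 and called with the endothelial one. Against WT-GFP, APP-GFP differed by 1.34 ± 1.23 and APP-SOCS3 by -0.90 ± 1.13, neither of them called. Without WT-GFP replicate 2, which listed *Ccl2* at 0, the APP-SOCS3 difference was called at -1.87.

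*Ccl12* was 0 to 118 with a median of 78.7 in WT-GFP astrocytes, with 2 of 7 samples at 0. It was 50.7, 123, 193 and 114 in APP-GFP and 0, 0, 85.0, 1.96 and 0 in APP-SOCS3 astrocytes, and 486, 601 and 402 in GFP- cells. In APP-SOCS3 4 of 5 samples had at most 3 reads, and replicate 3, at 85.0, lay within the APP-GFP range. The log2 fold change against APP-GFP was -5.18 ± 1.37 (SE, limma p = 0.00302, exact permutation p = 0.0238), but the edgeR estimate was -2.75, the edgeR p was 0.124 and the DESeq2 p 0.096, so of the 3 tools limma alone called it. Against WT-GFP it was -2.80 ± 1.62 and not called, and it was called without APP-SOCS3 replicate 3 (-4.01) or without WT-GFP replicate 1 or 3 (-3.54 for each).

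CCL3 and CCL4 are inflammatory chemokines that activated microglia and macrophages make. *Ccl3* was 35.0 to 247 with a median of 83.6 in WT-GFP astrocytes. It was 65.2, 279, 372 and 119 in APP-GFP, 88.3, 85.6, 78.0, 52.9 and 44.8 in APP-SOCS3 and 703, 923 and 1171 in GFP- samples. APP-GFP replicates 2, 3 and 4 were above every APP-SOCS3 sample, and replicate 1 lay within the APP-SOCS3 range. The log2 fold change of APP-SOCS3 against APP-GFP was -1.31 ± 0.57 (SE, limma p = 0.0411, exact permutation p = 0.0556). That call was lost when APP-SOCS3 replicate 3, 4 or 5 or APP-GFP replicate 2 or 3 was left out, where it ranged from -1.36 to -0.93. APP-GFP differed from WT-GFP by 1.01 ± 0.67 (SE, limma p = 0.156, exact permutation p = 0.145).

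*Ccl4* was 182 to 938 with a median of 715 in WT-GFP astrocytes. It was 454, 1599.6, 3583 and 831 in APP-GFP, 503, 512, 677, 447 and 337 in APP-SOCS3 and 5512, 7300.3 and 9959 in GFP- samples. APP-GFP replicate 3 stood highest, and APP-GFP replicate 1 lay among the APP-SOCS3 samples. APP-SOCS3 differed from APP-GFP by -1.33 ± 0.49 (SE, limma p = 0.0214, exact permutation p = 0.0476), and without APP-GFP replicate 3 the difference was -0.81 and not called. APP-GFP differed from WT-GFP by 1.16 ± 0.57 (SE, limma p = 0.0627, exact permutation p = 0.109), which limma did not call, while the unadjusted p was 0.0191 in edgeR and 0.0115 in DESeq2, which both did. Limma also called it without APP-GFP replicate 1 (1.63) or WT-GFP replicate 3 (1.29).

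*Ccl3* and *Ccl4* varied together over the 16 GFP+ samples, with a Pearson r of 0.92 for log2(level + 1). Both are set beside the microglial sum next, and their correlation with it was not tested. Given as a percentage of the GFP- mean, *Ccl3* was 0.458 to 1.38 times and *Ccl4* 0.292 to 1.17 times the microglial percentage of the same GFP+ sample. With the microglial covariate the APP-SOCS3 differences were 0.47 for *Ccl3* and 0.43 for *Ccl4*, both with the sign turned and not called. The gene closest to both in pattern was *Ctsd*, a lysosomal protease, at r = 0.94 for each (n = 16).

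CCL6 is a rodent CC chemokine that binds CCR1. *Ccl6* was 0 to 98.6 with a median of 50.1 in WT-GFP astrocytes. It was 197, 897, 1481 and 305 in APP-GFP, 157, 334, 214, 82.3 and 17.6 in APP-SOCS3 and 1476, 1269.6 and 1672 in GFP- samples. Every APP-GFP sample was above every WT-GFP sample, which held for 1 of 10 members and 0.313% of all genes tested. Of the 5 APP-SOCS3 samples 3 were above every WT-GFP sample, 2 of these within the APP-GFP range, and the other 2 lay within the WT-GFP range. The log2 fold change of APP-GFP against WT-GFP was 4.28 ± 1.18 (SE, limma p = 0.00299, exact permutation p = 0.00606), with an adjusted p of 0.999 in limma and 0.0106 in DESeq2. It remained called in limma without any 1 library.

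Relative to the microglial sum, *Ccl6* was higher in every APP-GFP sample than in every WT-GFP sample. Its percentage of the GFP- mean was 1.65 to 2.50 times the microglial percentage in APP-GFP samples, 0 to 0.563 times in WT-GFP samples and 0.262 to 2.83 times with SOCS3. The GFP- mean came from WT-GFP mice, and no GFP- sample came from APP mice. Whether microglia of APP mice differ in *Ccl6* or in the markers was therefore not tested, and the ratio does not assign *Ccl6* to a cell type. With the microglial covariate the APP-GFP difference was 2.99 (p = 0.0295, limma) and was called, and the APP-SOCS3 difference from WT-GFP was 3.70 (p = 0.0108, limma) and was called, against 2.03 ± 1.13 (SE, limma p = 0.0936, exact permutation p = 0.114) without it. The microglial sums were 4.55 to 8.03% with SOCS3 and 6.04 to 22.2% in WT-GFP, where only replicate 1 lay within the SOCS3 range. The value of 3.70 thus rests mostly on the fitted slope, not on samples with like sums. APP-SOCS3 differed from APP-GFP by -2.25 ± 0.84 (SE, limma p = 0.0216, exact permutation p = 0.0714), and by 0.46 (p = 0.61, limma) with the microglial covariate. Without APP-GFP replicate 3 that call was lost at -1.76.

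**Figure D4:**
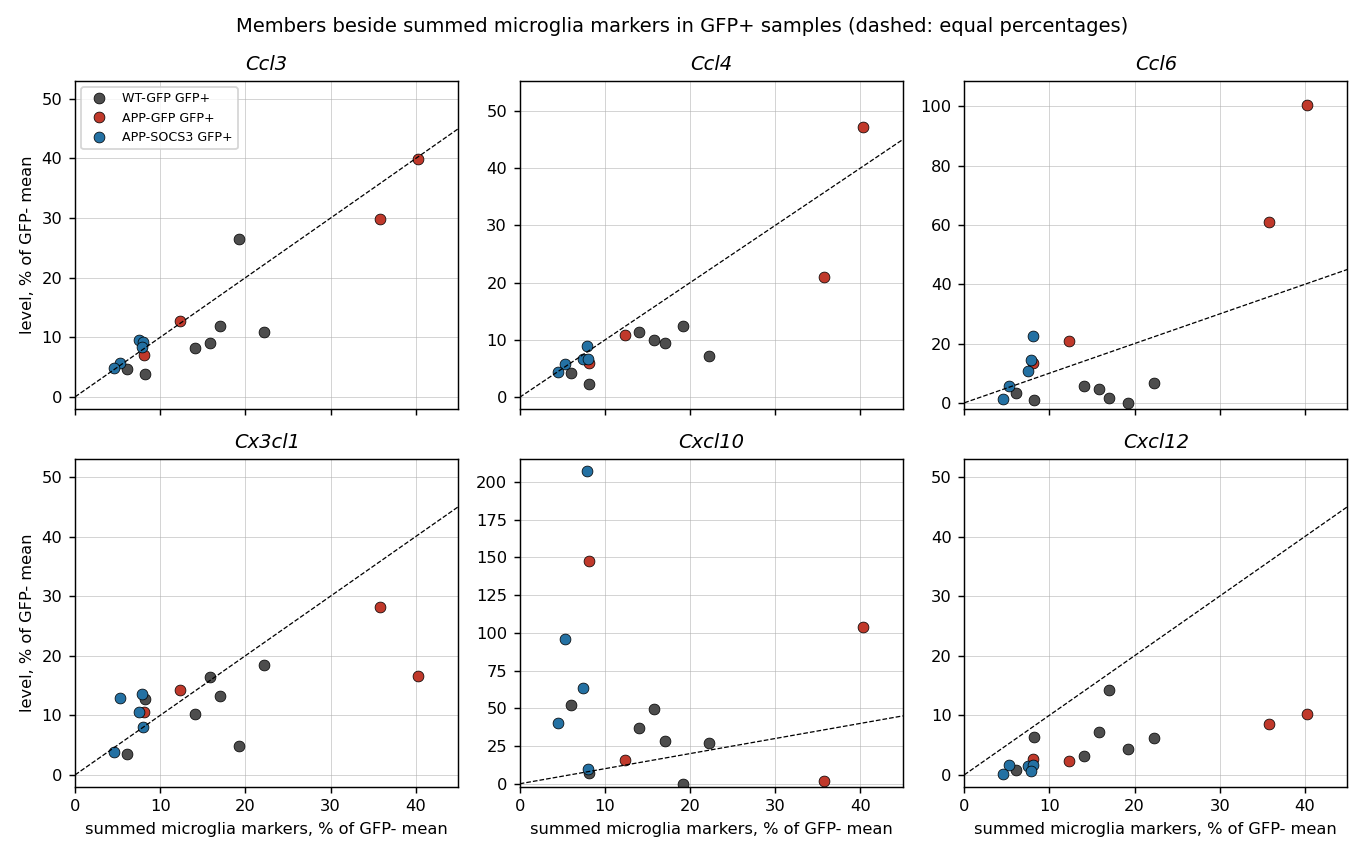
Level of 6 members (vertical axis) against the summed level of 18 microglia markers (horizontal axis) in each GFP+ sample, both as a percentage of the GFP- mean, with a dashed line where the percentages are equal. *Ccl3* points of APP-SOCS3 lie near the line, most WT-GFP points of *Ccl3* and *Ccl4* lie below it, APP-GFP points of *Ccl6* lie above it and WT-GFP points below it, and *Cxcl10* points do not follow it.

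CXCL12 signals through CXCR4 and is bound by ACKR3, and in brain it is made by endothelial cells, neurons and astrocytes. *Cxcl12* was 136 to 2605 with a median of 1121 in WT-GFP astrocytes. It was 474, 1565, 1853 and 422 in APP-GFP, 267, 311, 110.0, 304 and 13.2 in APP-SOCS3 and 17439, 15967 and 21266 in GFP- samples. Every APP-SOCS3 sample was below every APP-GFP sample, and below 6 of 7 WT-GFP samples. WT-GFP replicate 1, with the lowest level, lay below 3 of the 5 APP-SOCS3 samples. The log2 fold change was -2.73 ± 0.89 (SE, limma p = 0.0105, exact permutation p = 0.0159) against APP-GFP and -2.66 ± 0.81 (SE, limma p = 0.00544, exact permutation p = 0.0114) against WT-GFP, and 0.07 ± 0.68 between APP-GFP and WT-GFP. With the endothelial covariate the difference from APP-GFP was 0.37, with the sign turned and not called. Endothelial sums were 0.845 to 3.65% of the GFP- mean in APP-SOCS3 and 3.41 to 19.6% in APP-GFP samples. That fit therefore compares samples with mostly unlike sums. The nearest genes of *Cxcl12* among 10230 compared were *Klf2*, a flow-responsive transcription factor of endothelium, at r = 0.94 and *Tmeff1*, a transmembrane protein, at r = 0.93 (n = 16).

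CX3CL1 and CXCL16 are made as transmembrane proteins that ADAM10 and ADAM17 can shed, and bind CX3CR1 and CXCR6. *Cx3cl1* was 257 to 1373 with a median of 952 in WT-GFP astrocytes. It was 789, 2091, 1239.5 and 1057 in APP-GFP, 783, 593, 1004, 959 and 285 in APP-SOCS3 and 8335, 6858 and 7112 in GFP- samples. APP-GFP replicates 2, 3 and 4 were above every APP-SOCS3 sample, and replicate 1 was below 2 of them. The difference of APP-SOCS3 from APP-GFP was -0.87 ± 0.39 (SE, limma p = 0.0478, exact permutation p = 0.0873), and the call was lost without APP-SOCS3 replicate 1, 2 or 5 or APP-GFP replicate 2, 3 or 4, at -0.94 to -0.57. With the microglial covariate it was not called.

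*Cxcl16* was 0 to 147 with a median of 78.7 in WT-GFP astrocytes. It was 17.2, 199, 281 and 88.9 in APP-GFP, 47.5, 55.8, 50.01, 52.9 and 37.8 in APP-SOCS3 and 967, 549.7 and 689 in GFP- samples. The APP-SOCS3 samples were close to each other, and APP-GFP replicate 1 lay below all of them. APP-SOCS3 differed from APP-GFP by -0.99 ± 0.76 (SE, limma p = 0.22, exact permutation p = 0.254), not called by limma, while edgeR (p = 0.0437) and DESeq2 (p = 0.0259) did call it. Limma called it at -1.80 without APP-GFP replicate 1.

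Over the 16 GFP+ samples other member pairs with high r were *Ccl2* and *Cxcl16* at 0.80, *Ccl12* and *Cx3cl1* at 0.79 and *Cxcl12* and *Cx3cl1* at 0.67, points that share each library's depth and number of genes detected. Nearest genes were the highest of 10230 compared over 16 samples, and their r was 0.81 to 0.94 over the members, so a high r alone says little. They were *D8Ertd82e* and *Fhl1* for *Ccl2* (r = 0.93 and 0.92) and *Nifk* and *Pgap2* for *Ccl6* (r = 0.88 and 0.87). For *Ccl12* they were *5430416O09Rik* and the leukocyte integrin gene *Itgb2* (r = 0.81 for both), and for *Cx3cl1* *5430416O09Rik* and *Clec5a* (r = 0.92 and 0.91). For *Cxcl10* they were *Pigf* and *Asna1* (r = 0.91 for both), for *Cxcl14* *Tmem256* and *Uqcc2* (r = 0.92 for both), and for *Cxcl16* *Anxa11* and *Cd24a* (r = 0.91 for both).

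Of the 27 other chemokine ligands, 12 reached the mean level of 10 needed for testing between APP-GFP and WT-GFP. Limma called 0 of these, against 2.23% of all genes, with 11 of 12 estimates above 0. Between APP-SOCS3 and APP-GFP 2 of 13 tested were called lower and 0 higher, against 3.37% and 2.33% of all genes. None of the 13 had an adjusted limma p under 0.05. As for the members, the SOCS3 vector and the microglial marker level cannot be told apart here. *Cxcl1*, a neutrophil attractant, fell from 49.99 to 3.04 (log2 fold change -4.35 ± 1.10, limma p = 0.00228, exact permutation p = 0.0159). *Pf4*, a ligand of platelets and border macrophages, fell from 67.4 to 12.5 (-3.02 ± 1.03, limma p = 0.0136, exact permutation p = 0.0159). Neither differed between APP-SOCS3 and WT-GFP in a called way, and 0 of 11 tested were called there, against 5.21% of all genes.

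The other ligand with the highest level over all samples was *Ccl27a*, which attracts lymphocytes to skin and has near-identical copies in the mouse genome, so that its counts are uncertain. It was higher in WT-GFP astrocytes than in GFP- cells, at 452 ± 122 against 222 ± 36.2 (SD, n = 7 and 3), a log2 fold change of 0.99 ± 0.32 (SE, limma p = 0.0111, exact permutation p = 0.00833), and was the single higher call among 19 tested, of which 15 were lower. *Cxcl1* (-8.13 ± 1.62) and *Ccl9*, a relative of *Ccl6* (-6.28 ± 1.82), were among the 15. Over all genes 9.25% were higher and 33.5% lower in that comparison. *Ccl25*, a thymus and gut ligand, was 91.0 ± 77.5 against 81.0 ± 20.7 and not called.

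Of 23 chemokine receptors 10 were tested in the comparisons between astrocytes. APP-SOCS3 against APP-GFP gave 3 lower and 0 higher, against 3.37% and 2.33% of all genes. None of the 10 had an adjusted limma p under 0.05. The SOCS3 vector and the microglial marker level cannot be told apart for these receptors either. *Cx3cr1*, the receptor of CX3CL1 and a microglial gene, fell from 819.8 to 275 (-1.34 ± 0.44, limma p = 0.0111, exact permutation p = 0.0238). *Ackr3*, the scavenging receptor of CXCL12, fell from 798 to 404 (-1.07 ± 0.33, limma p = 0.00739, exact permutation p = 0.0159) with no overlap, as did 2.01% of all genes. *Ccrl2*, a non-signalling receptor that binds chemerin, fell from 518 to 151 (-1.79 ± 0.66, limma p = 0.0201, exact permutation p = 0.0476). *Cx3cr1* (-1.30 ± 0.43) and *Ccrl2* (-1.62 ± 0.59) were also lower than in WT-GFP, as were 2.02% of all genes. Between APP-GFP and WT-GFP 0 of 10 were called, against 2.23% of all genes. In WT-GFP astrocytes against GFP- cells 17 of 19 were lower, against 33.5% of all genes. *Ackr4*, a scavenger of CC ligands, was 472 ± 311 against 456 ± 151 and not called.

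Among 7 enzymes that cut or shed chemokines, 6 were tested between APP-SOCS3 and APP-GFP and 2 were lower, against 3.37% of all genes. None of the 6 had an adjusted limma p under 0.05. Here too the SOCS3 vector and the microglial marker level cannot be told apart. *Ctss*, a lysosomal cysteine protease of microglia, fell from 8204 to 1285 (-2.23 ± 0.56, limma p = 0.00216, exact permutation p = 0.0159). *Dpp4*, which trims the amino end of CXCL10 and CXCL12, had 0 reads in all 5 APP-SOCS3 libraries against a mean of 206 ± 346 (SD, n = 4) in APP-GFP, where 3 of 4 samples exceeded 3 reads. This is at least 70.3-fold lower with 3 reads per library as the floor. The highest APP-GFP sample, replicate 2, was at 725 and had fewer than 20000 genes detected, and without it the bound is at least 11.5-fold lower. The sheddases *Adam10* (-0.60 ± 0.64) and *Adam17* (-0.06 ± 0.43) and the metalloprotease *Mmp14* (0.19 ± 0.22) were not called. *Mmp14* was higher in WT-GFP astrocytes than in GFP- cells (0.86 ± 0.28, limma p = 0.0109, exact permutation p = 0.025). Between APP-GFP and WT-GFP 0 of 6 enzymes were called by limma, against 2.23% of all genes. *Ctss* was also lower in APP-SOCS3 than in WT-GFP samples (-1.15 ± 0.36, limma p = 0.00594, exact permutation p = 0.0215).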

How the data were processed

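RNAseq of 16 GFP+ and 3 GFP- samples was used. The authors aligned reads with STAR 2.4.0 to mm10, counted them on constitutive regions of FAST DB genes and deposited the counts divided by DESeq2 size factors, a normalized signal per gene. The counter's version and its use of strand are not given in the sources used here, so overlapping and antisense genes cannot be separated. Low values were whole multiples of 1 read (100% of values above 0, tolerance 0.001), and whole reads were recovered from them. Intervals of levels cover the spread between samples, and 19331876 to 32621917 reads per sample set the precision of low genes. No pair of samples had identical values. Of the 60567 entries, 34671 had no symbol. Groups came from the sample labels.

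Levels were compared in R 4.3.3 with limma 3.58.1 (mean-variance trend, log2(level + 1), genes averaging 10 or more in one of the groups compared, only the samples compared). Calls required p no higher than 0.05 and a change of 1.5-fold or more, as in the study's methods, with Benjamini-Hochberg adjusted p beside it. Permutation tests of single members were exact and 2-sided. edgeR 4.0.16 (quasi-likelihood) and DESeq2 1.42.0 on the recovered reads, other scalings, pseudocounts, minimum levels, sample weights, marker covariates, the replicate block and leaving out each library were alternatives, and the fit was tested on simulated data. The floor for a group at 0 was 3 reads per library.

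Members, gene lists and tests were chosen with earlier results of these data known. Genes named beside the members were those of the ligand, receptor and enzyme lists called with APP or with SOCS3, the 4 highest of each list, and the 2 genes with the highest Pearson r to each member (mean level of at least 100). One of these neighbours is not reported here. Replicate numbers were checked for pairing and gave no clear pairing of the samples. Lengths came from GENCODE M21 and promoters from RefSeq.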

Additional observations from a re-analysis of the deposited data

Results flagged for a closer look

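Of 30 groups of 4 to 7 samples examined, 2 had a sample set apart from the others by a gap that exceeds Dixon's 95% critical value, and chance sets apart about 1 in 20 groups. *Ccl3* in WT-GFP replicate 3 was 247, and the nearest of the other 6 WT-GFP samples was 111. *Ccl12* in APP-SOCS3 replicate 3 was 85.0, and the nearest of the other 4 APP-SOCS3 samples was 1.96.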

How the results depend on the processing

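Over the alternatives other than leaving out 1 library, 530 of 636 values kept their direction and side of the threshold, 48 became weaker, 15 stronger and 43 reversed. Leaving out 1 library did so for 378 of 420, with 18 weaker, 9 stronger and 15 reversed. The cause of these changes was not tested. Low levels limit *Ccl2*, *Ccl6*, *Ccl12*, *Cxcl10* and *Cxcl16*, which were at 0 in some WT-GFP libraries.

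Members called in GFP+ WT-GFP astrocytes against GFP- cells (9 of 10) became 1 with the microglial and 5 with the endothelial covariate. There both marker sums separate the 2 groups completely, so the covariates restate the comparison and these counts say nothing about its stability. In APP-GFP against WT-GFP (1 of 10) they became 2 with all 19 samples in 1 fit, with edgeR and with DESeq2, and 0 with adjusted p. In APP-SOCS3 against APP-GFP (7 of 10) they became 4 with all 19 samples and with sample weights, 0 with adjusted p, 0 with the microglial and 2 with the endothelial covariate. In APP-SOCS3 against WT-GFP (1 of 10) they became 3 with sample weights, 2 with DESeq2, 0 with adjusted p and 0 with the endothelial covariate. Leaving out 1 library gave 7 to 10, 1 to 2, 3 to 8 and 1 to 2 in these 4 comparisons. Genes called then ranged over 8838 to 11679, 393 to 677, 1052 to 1836 and 904 to 1435. In an alternative chosen after seeing the data, libraries with at least 20000 genes detected, members called were 10, 1, 5 and 4. Genes called there were 12360, 733, 1279 and 1649. The *Dpp4* bound without its highest APP-GFP library, 11.5-fold against 70.3-fold, was also chosen after seeing the data.

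Same-numbered samples had correlations of -0.0761 to 0.154 (16 pairs, 2 over 0.1), so the numbers gave no clear pairing. The same number was still the best match for replicates 2, 3 and 4 of APP-SOCS3 against APP-GFP. It was also so for replicates 1 and 2 against GFP- cells and replicate 2 with APP, and for no other pair. Low correlations cannot exclude that some samples shared a mouse. With the replicate block 9, 2, 5 and 1 members were called in the 4 comparisons, against 10999, 663, 1132 and 1433 genes. There *Cxcl14* in APP-SOCS3 against WT-GFP was -0.0123.

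Log2 fold changes that reversed with the microglial covariate were 4.76 (*Ccl12*), 0.78 (*Cxcl10*) and 0.32 (*Cxcl16*) against GFP- cells, -0.82 (*Cxcl12*) and 0.0472 (*Cxcl14*) with APP, 0.47 (*Ccl3*), 0.43 (*Ccl4*), 0.46 (*Ccl6*), -0.77 (*Cxcl10*) and 1.28 (*Cxcl16*) with SOCS3, and 0.0044 (*Ccl3*), 0.16 (*Ccl4*), -0.0177 (*Cxcl14*) and 0.70 (*Cx3cl1*) in APP-SOCS3 against WT-GFP. With the endothelial covariate they were 1.99 (*Ccl12*) against GFP- cells, -0.10 (*Cxcl12*) and 0.0029 (*Cxcl14*) with APP, 0.24 (*Ccl6*), -0.49 (*Cxcl10*), 0.37 (*Cxcl12*), 0.25 (*Cxcl16*) and 0.18 (*Cx3cl1*) with SOCS3, and 0.25 (*Ccl3*), 0.21 (*Ccl4*), -0.22 (*Cxcl16*) and 0.90 (*Cx3cl1*) in APP-SOCS3 against WT-GFP. With sample weights they were -0.54 (*Cxcl12*), 0.15 (*Cxcl14*), -0.30 (*Cxcl16*) and -0.0216 (*Cx3cl1*) with APP, and -0.71 (*Cxcl16*) in APP-SOCS3 against WT-GFP, where edgeR gave -0.44 and DESeq2 -0.45. DESeq2 gave -0.0301 for *Cxcl12* with APP, and equal totals and TMM scaling gave 0.00665 and 0.0249 for *Cxcl14*. With libraries of at least 20000 genes they were -0.47 (*Cxcl12*), 0.21 (*Cxcl14*), -0.40 (*Cxcl16*) and -0.0508 (*Cx3cl1*) with APP, -0.17 (*Cxcl10*) with SOCS3 and -1.05 (*Cxcl16*) in APP-SOCS3 against WT-GFP.

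Leaving out 1 library gave ranges that cross 0 for *Cxcl10* (-0.0598 to 2.14), *Cxcl12* (-0.37 to 0.42) and *Cxcl14* (-0.0827 to 0.0904) with APP, *Cxcl10* (-0.17 to 1.83) with SOCS3, and *Cxcl16* (-0.37 to 0.83) and *Cx3cl1* (-0.39 to 0.16) in APP-SOCS3 against WT-GFP. Genes called against GFP- cells (11419) became 6709 at a minimum level of 100, 2309 with the microglial and 5329 with the endothelial covariate. With APP (513) they became 817 with no minimum, 123 at 100, 991 with all 19 samples, 1100 with weights, 1 with adjusted p and 252 with the microglial covariate. With SOCS3 (1301) they became 650 at 100, 1 with adjusted p, 566 with the microglial and 589 with the endothelial covariate, and in APP-SOCS3 against WT-GFP (1197) 441, 2589 with weights and 7 with adjusted p.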
